A study of Mus musculus with 8 samples.

Results

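The 9 genes described here are 4 regulators and receptors of the red cell lineage (Gata1, Klf1, Epor and Nfe2) and 5 globins of the embryo (Hba-x, Hba-a1, Hba-a2, Hbb-y and Hbb-bh1), chosen by name out of the 28014 genes in the count table. They were followed in the 10 cell clusters that the authors had named and in both genotypes. The data were CITE-seq libraries, in which RNA and antibody tags are counted in the same cell, from CD31+ cells sorted out of the aorta-gonad-mesonephros (AGM) region of mouse embryos at day E10.5. The strain label was C57BL/6. There were 5 wild-type (WT) libraries and 3 libraries of the genotype Meis1-flox/VE-Cre (called cKO here), in which a floxed Meis1 allele was cut by a Cre recombinase under the VE-cadherin promoter. That promoter is active in endothelium, so blood cells descended from it also carry the deletion, while cells of other origin need not. Each library held cells pooled from 2 to 5 embryos, so the spread between libraries was one between pools, and the 3′ counts of Meis1 do not test whether the floxed exon was lost.

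The first red cells of the mouse embryo arise in the yolk sac and carry embryonic globins into the circulation. Their genes lie in an alpha cluster (Hba-x, then Hba-a1 and Hba-a2) and a beta cluster (Hbb-y and Hbb-bh1, with the adult genes Hbb-bt and Hbb-bs), and GATA1 and KLF1 are the transcription factors that drive them in erythroid cells. Erythro-myeloid progenitors (EMP) are a later yolk sac wave that yields red cells, megakaryocytes and myeloid cells, and erythroid and megakaryocytic cells share Gata1 and Nfe2. Red cells are fragile, and RNA that leaks from them into a cell suspension can be captured with any other cell.

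The globin promoters are shown because the globins divided the cell clusters differently from each other, and Klf1 because its RNA divided the EMP cluster. Each run is the 250 bases before the gene start on the gene's own strand, from RefSeq (GRCm38.p6). Capitals mark GATAA or its reverse complement TTATC, letters that GATA factors read. They also mark CCACCC or its reverse complement GGGTGG, a short form of the CACCC-type letters read by KLF1. Only these exact letters were searched, so other forms of either motif are unmarked. No match of one motif overlaps one of the other in these runs.
Klf1, chr8:84901732-84901981, plus strand: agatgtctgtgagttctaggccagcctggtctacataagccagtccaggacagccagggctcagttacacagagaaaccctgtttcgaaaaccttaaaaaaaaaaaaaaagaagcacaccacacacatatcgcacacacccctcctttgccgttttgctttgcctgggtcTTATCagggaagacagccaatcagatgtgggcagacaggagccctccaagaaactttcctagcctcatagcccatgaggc
Hba-x, chr11:32276350-32276599, plus strand: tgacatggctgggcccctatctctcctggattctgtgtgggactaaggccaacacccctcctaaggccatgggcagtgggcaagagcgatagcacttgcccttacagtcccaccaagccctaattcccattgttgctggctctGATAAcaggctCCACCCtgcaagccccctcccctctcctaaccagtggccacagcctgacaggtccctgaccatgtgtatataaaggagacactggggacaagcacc
Hba-a1, chr11:32283422-32283671, plus strand: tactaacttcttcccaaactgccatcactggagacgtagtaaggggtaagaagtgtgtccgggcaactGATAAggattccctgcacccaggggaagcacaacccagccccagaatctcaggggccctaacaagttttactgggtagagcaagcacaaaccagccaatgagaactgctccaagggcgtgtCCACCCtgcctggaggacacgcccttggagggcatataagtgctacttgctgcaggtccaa
Hbb-y, chr7:103853208-103853457, minus strand: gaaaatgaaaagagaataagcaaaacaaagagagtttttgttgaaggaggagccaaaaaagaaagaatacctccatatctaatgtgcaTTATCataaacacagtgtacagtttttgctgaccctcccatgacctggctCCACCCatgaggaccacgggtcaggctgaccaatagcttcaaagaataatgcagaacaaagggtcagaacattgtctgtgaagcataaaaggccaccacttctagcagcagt
Hbb-bt, chr7:103813924-103814173, minus strand: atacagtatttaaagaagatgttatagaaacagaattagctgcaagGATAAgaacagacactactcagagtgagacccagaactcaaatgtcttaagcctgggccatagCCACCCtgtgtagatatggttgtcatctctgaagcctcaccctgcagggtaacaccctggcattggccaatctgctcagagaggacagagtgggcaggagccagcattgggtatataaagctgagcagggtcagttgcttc
GATAA stood in 22.6% of 32851 mouse promoters of this length, CCACCC in 28.1% and both in 5.00%. Among the 7 members with an entry, 6 held GATAA, 6 held CCACCC and 5 held both (Epor, Hba-x, Hba-a1, Hba-a2 and Hbb-y). In Hba-x GATAA began at position -107 and CCACCC at -96, counted back from the gene start. In Hbb-y they began at -162 and -112, and in Hbb-bt at -204 and -141. Klf1 held GATAA at -80 and no exact match of CCACCC. Hba-a1 and Hba-a2 shared an unbroken run of 247 of these bases. In this build Hba-x lies at chr11:32276600-32278116, Hba-a1 at chr11:32283672-32284486 and Hba-a2 at chr11:32296492-32297310. Hbb-bh1 lies at chr7:103841638-103843162 and Hbb-y at chr7:103851754-103853207, Klf1 at chr8:84901982-84905291, Epor at chr9:21958897-21963576, Nfe2 at chr15:103248212-103258403 and Gata1 at chrX:7959260-7976663. Hba-a1 and Hba-a2 are near-identical copies as genes too, so reads can be split between them by the counting, and their separate values are uncertain. A match is a run of letters and was not tested as a binding site.

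The 15168 cells comprised 747 EMP cells, 359 megakaryocytes, 488 cells of the endothelial-to-hematopoietic transition (EHT), 2397 myeloid cells, 248 pre-hemogenic cells (preHE), 1512 arterial endothelial cells (aEC) and 4 venous endothelial clusters (vEC_1 to vEC_4). The 5 endothelial clusters held 10929 cells. Depth moved with genotype: the median was 26572 to 28553 unique molecular identifiers (UMIs, counted RNA molecules) per cell in WT 1 to WT 4, 12721 in WT 5 and 9612 to 14895 in the cKO libraries. EMP cells were deeper than endothelium in every library, at medians of 47527 to 53132 UMIs in WT 1 to WT 4, 21434 in WT 5 and 14516 to 20501 in cKO. WT 3 held 38 EMP cells and 5 megakaryocytes, the fewest of any library. The EMP cluster had the markers of progenitors, with Mpo at 707 CPM, Runx1 at 177, Myb at 174 and Kit at 74.9 CPM. The megakaryocyte cluster had Pf4 at 19518 CPM. Of all cell barcodes, 33 occurred in more than 1 library, in 66 cells, and all were kept. Levels are CPM, UMIs of a gene per 1000000 UMIs of the cells of a cluster in a library, unless said otherwise.

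Gata1, the transcription factor of erythroid and megakaryocytic cells, was highest in megakaryocytes, followed by EMP cells, and close to 0 in endothelium. In megakaryocytes it stood at 211, 159, 65.6, 119 and 139 CPM in WT 1 to WT 5 and at 191, 176 and 172 CPM in cKO 1 to cKO 3. In EMP cells it stood at 77.0, 74.3, 19.9, 36.0 and 62.3 CPM in WT and at 49.7, 70.5 and 48.7 CPM in cKO. The order megakaryocytes above EMP held in 8 of 8 libraries, and WT 3 was lowest in both clusters. Against venous endothelium summed over its 4 clusters, at most 0.182 CPM in any library, Gata1 was 6.47 higher in EMP cells, 7.99 higher in megakaryocytes and 2.30 higher in EHT cells on the log2(CPM + 0.5) scale. The other clusters with a few counts were myeloid cells at 3.15 ± 1.99 CPM and EHT cells at 2.87 ± 2.07 CPM (SD, n = 8 libraries). Each of the 3 differences had the same sign in 8 of 8 libraries, with an exact sign-flip p = 0.0078, the smallest that 8 libraries can give, and an adjusted p = 0.0286 over the 66 differences from endothelium that were computed. The authors drew the clusters from these same RNA counts, so the p-values on clusters describe them and are no independent test of cell type.

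Klf1, the erythroid Krüppel-like factor, was the one regulator of the 4 that was higher in EMP cells than in megakaryocytes. In EMP cells it stood at 46.6, 49.2, 1.94, 27.3 and 33.7 CPM in WT and at 41.9, 37.8 and 19.8 CPM in cKO. In megakaryocytes it stood at 4.36, 2.17, 0, 2.48 and 1.66 CPM in WT and at 8.80, 1.02 and 12.3 CPM in cKO. WT 3 was again low, with 1.94 CPM, and the other 7 libraries did not overlap between the clusters. Venous endothelium lay between 0.056 and 0.143 CPM in every library. The difference of EMP from it was 5.40 (log2, 8 of 8 libraries, exact sign-flip p = 0.0078, adjusted p = 0.0286). When each cell was thinned to 5000 UMIs, 12.3% ± 6.35 (SD, n = 8 libraries) of EMP cells held a Klf1 UMI against 0.0780% ± 0.0658 of venous endothelial cells. Before thinning these shares were 29.7% and 0.208%. Myeloid cells (1.5 ± 1.25 CPM) and EHT cells (1.06 ± 1.15 CPM) were low, and in preHE cells no Klf1 or Gata1 UMI was counted, where 3 counts would be 2.37 CPM in WT 4, the deepest preHE library, and 26.5 CPM in cKO 3, the shallowest.

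Epor, the erythropoietin receptor, was again highest in megakaryocytes. It stood there at 88.3, 49.96, 56.8, 63.7 and 37.8 CPM in WT and at 56.3, 39.9 and 50.5 CPM in cKO. In EMP cells it stood at 15.9, 19.3, 0.484, 9.58 and 10.8 CPM in WT and at 7.31, 10.6 and 6.89 CPM in cKO, so the clusters did not overlap. Within endothelium Epor was not even: arterial cells had 1.99 ± 0.669 CPM and venous cells 0.737 ± 0.167 CPM (SD, n = 8 libraries). Arterial cells were higher in 8 of 8 libraries, by 0.98 on the log2(CPM + 0.5) scale (exact sign-flip p = 0.0078, adjusted p = 0.0286). Among the venous clusters, vEC_4 stood at 2.10 ± 0.889 CPM and vEC_2 at 0.263 ± 0.195 CPM.

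Nfe2, the blood-restricted subunit of the NF-E2 factor that acts in megakaryocytes and red cells, was the one regulator with a high level in EHT cells. There it ranged from 29.3 to 43.5 CPM over the 8 libraries, with a median of 35.0 CPM. EMP cells had 57.1, 50.1, 42.1, 47.2 and 53.8 CPM in WT and 79.4, 68.6 and 58.6 CPM in cKO, and megakaryocytes 69.9 to 158 CPM with a median of 87.2 CPM. Its order was megakaryocytes, EMP, EHT and myeloid cells (6.76 to 19.3 CPM), each above the next in 8 of 8 libraries. The venous endothelium had at most 0.462 CPM. Over all genes and cluster neighbours 99 such steps were tested by exact sign flips. The lowest adjusted p obtained was 0.0595, for steps at the smallest p that 8 libraries can give.

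**Figure D1:**
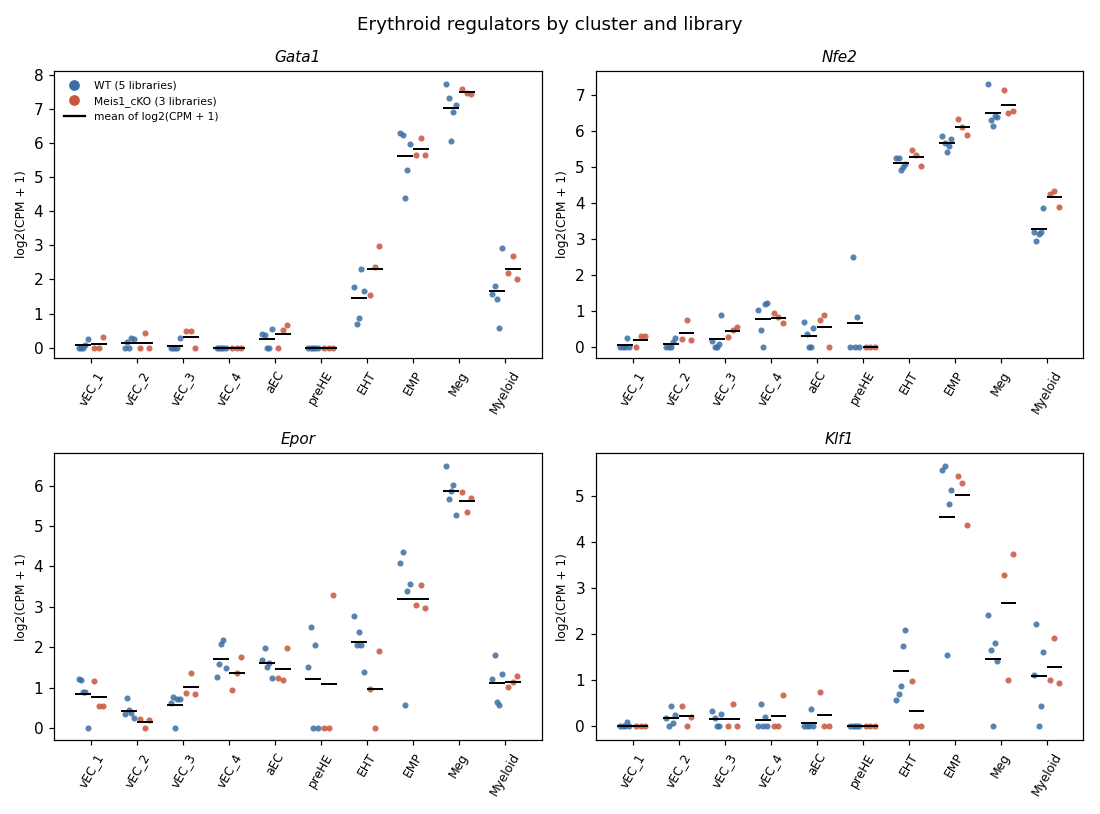
Gata1, Klf1, Epor and Nfe2 in each cluster, as log2(CPM + 1) on the y axis, with 1 point per library (WT and cKO in different colours) and a bar at the mean log2 value of each genotype. Gata1, Epor and Nfe2 stand highest in megakaryocytes, Klf1 stands highest in EMP cells at 32.3 CPM on average, and Nfe2 has 35.3 CPM on average in EHT cells.

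EMP cells were then compared with EHT cells, and megakaryocytes with EMP cells, by edgeR on the summed counts of the WT libraries. Between EMP and EHT cells 56.4% of the 9252 genes tested were called at an adjusted p under 0.1 (27.6% higher and 28.8% lower in EMP cells), so a call by itself was common. Of the 6 members tested, 5 were called, 4 higher and 1 lower. Gata1 was higher in EMP cells by 4.66 ± 0.25 on the log2 scale (SE), Hbb-bh1 by 2.20 ± 0.25, Epor by 1.78 ± 0.37 and Nfe2 by 0.68 ± 0.09, while Hbb-y fell by 0.70 ± 0.18 (edgeR adjusted p = 0.00544 for Hbb-y and below that for the other 4). Hba-x had a log2 difference of 0.34 ± 0.17 (edgeR adjusted p = 0.124), and Klf1, Hba-a1 and Hba-a2 did not pass the filter on low counts. Hbb-bh1 and Hbb-y, neighbours in the beta cluster, thus had opposite signs.

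Genes of heme synthesis and iron uptake went with the EMP side. Of 15 tested, 12 were higher in EMP than in EHT cells and 0 were lower, with a median log2 difference of 0.81 against -0.01 over all genes. They included Alas1 (1.98), the enzyme of the first step in non-erythroid cells, Glrx5 (0.70), which serves iron-sulphur clusters, and the ferrireductase Steap3 (2.30). Of 9 tested genes of the red cell membrane and late maturation, 3 were higher and 6 lower: Cited4 was higher by 4.42 and Car2 by 1.17, and Prdx2 fell by 0.80. Of 14 erythroid transcription factors 5 were higher and 5 lower, with Gata2 up by 1.12 and Bcl11a down, a log2 difference of -1.17. Of 14 myeloid genes 12 were higher in EMP cells, Mpo by 3.47 and Prtn3 by 2.62 among them.

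Between megakaryocytes and EMP cells the fit used 4 WT libraries, because WT 3 had fewer than 10 megakaryocytes, and 58.9% of 9370 genes were called, 29.5% in each direction. Of the 9 members, 7 were higher in megakaryocytes and Klf1 was lower, by a log2 difference of -3.89 ± 0.26 (edgeR adjusted p = 4.4e-06). Gata1 was higher by 1.44 ± 0.14, Epor by 2.19 ± 0.24 and Nfe2 by 0.98 ± 0.18. Hba-a1 was higher by 6.05 ± 0.50, Hbb-y by 4.71 ± 1.3, Hba-a2 by 3.65 ± 0.66 and Hbb-bh1 by 2.86 ± 0.85, and Hba-x, at 2.60 ± 1.33, was not called (edgeR adjusted p = 0.131). The globin values rested on few cells and libraries. Without WT 2, Hba-x was 0.67, Hbb-y 3.28 and Hba-a2 2.54, and without WT 4 they were 4.30, 6.25 and 4.44. Without cells of 50 or more globin UMIs, Hba-a1 was still called, at 3.93, and Hbb-y, at 0.84, but Hba-a2, at 0.94 (edgeR adjusted p = 0.125), and Hbb-bh1, at 0.36 (edgeR adjusted p = 0.246), were not.

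Red cell membrane genes and receptor signalling leaned to megakaryocytes, and heme genes did not. Of 18 membrane and late genes 13 were higher and 5 lower (median 1.81 against -0.02 over all genes), among them the spectrin gene Sptb (4.14) and the glycophorin gene Gypc (2.22). Bnip3l, which acts in mitochondrial clearance, was higher by 1.75. Of 11 genes of erythropoietin and KIT signalling 7 were higher and 3 lower: Cish (3.71), Jak2 (1.46) and Lyn (1.68) were higher, and Kit itself was lower (-2.88). Of 15 heme genes 4 were higher and 7 lower, with Steap3 at -2.11, Alas1 at -1.67, Alad at -0.79 and Glrx5 at -0.61. All 15 genes of the megakaryocyte list were higher, with a median of 5.67. This list describes the cluster, since its genes name it.

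Globin counts were present in every cluster, endothelium included. In venous endothelium Hbb-y was the most abundant, at 34.9, 29.9, 17.4, 98.0 and 24.99 CPM in WT 1 to WT 5 and at 73.6, 113 and 45.3 CPM in cKO. Hba-x followed at 8.03, 3.35, 1.00, 36.8 and 15.7 CPM in WT and at 40.3, 53.5 and 23.4 CPM in cKO. Hbb-bh1 stood at 3.59, 1.03, 0.502, 17.3 and 4.39 CPM in WT and at 16.6, 14.6 and 11.1 CPM in cKO. WT 4 and the 3 cKO libraries were above the other WT libraries for each of the 5 genes, and WT 3 was lowest for 4 of the 5, with WT 2 lowest for Hba-a2. Between the lowest and highest library, venous levels differed 53.3-fold for Hba-x, 34.5-fold for Hbb-bh1, 56.3-fold for Hba-a1, 19.2-fold for Hba-a2 and 6.50-fold for Hbb-y. Within a library, the highest of the 5 endothelial clusters exceeded the lowest by a median of 1.57-fold for Hba-x, 1.46-fold for Hbb-bh1 and 1.80-fold for Hba-a1, over 7 libraries, since WT 3 had a cluster at 0 for each. Over all 8 libraries it was 2.62-fold for Hba-a2, with up to 5.64-fold in WT 3, and 2.44-fold for Hbb-y, with up to 6.91-fold in WT 2. The summed venous level was 64.4 ± 57.5 CPM in WT (SD, n = 5) and 147 ± 56.0 CPM in cKO (n = 3), a log2 difference of 1.49 between mean log values (exact permutation p = 0.107 over libraries, two-sided, smallest possible 0.0179). Without WT 4 this difference was 1.93 (exact permutation p = 0.0286).

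**Figure D2:**
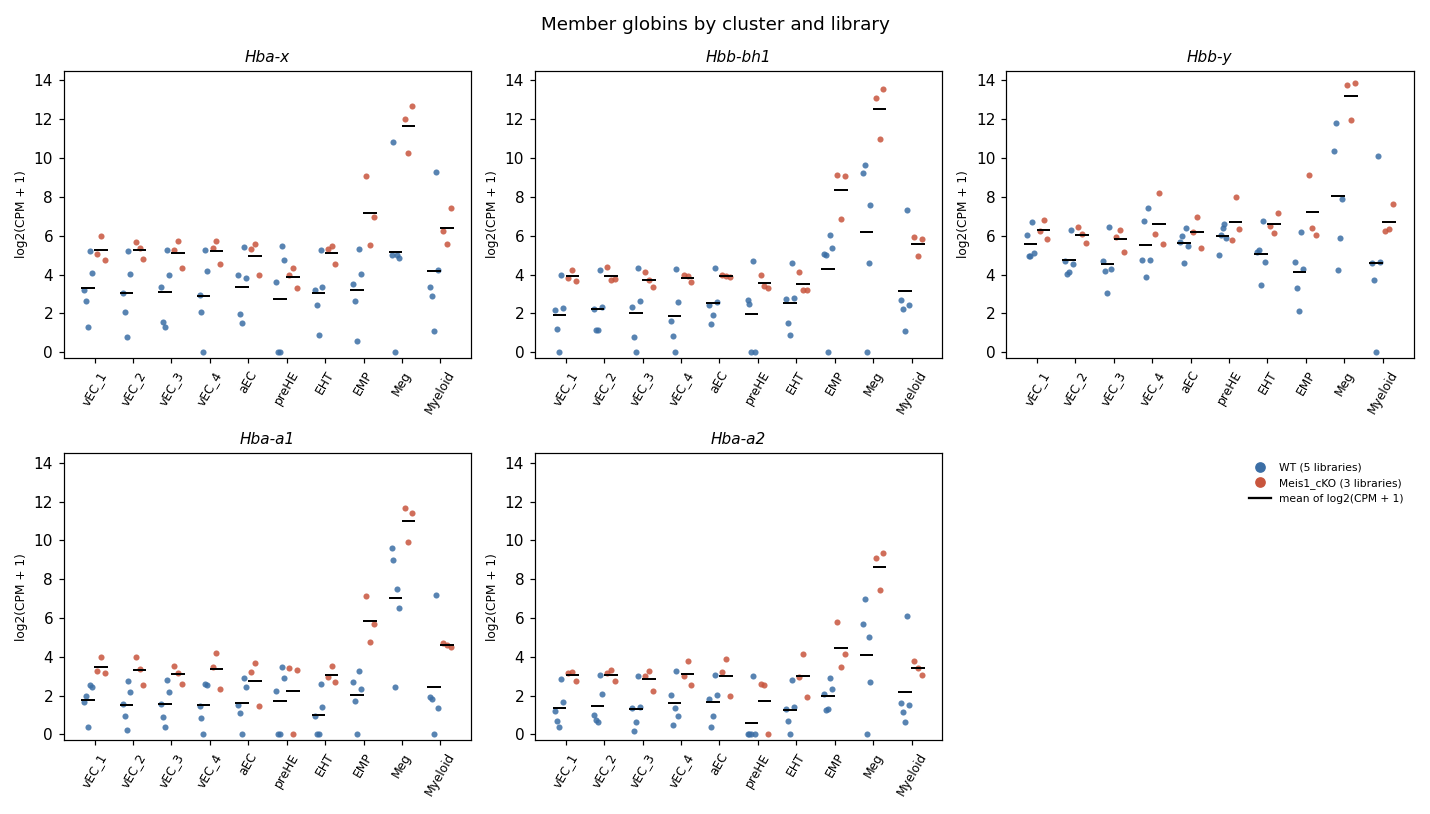
The 5 member globins in each cluster, as log2(CPM + 1) on the y axis, with 1 point per library (WT and cKO in different colours) and a bar at the mean log2 value of each genotype. Averaged over libraries, Hba-x is at 15.4 to 23.7 CPM in the endothelial, preHE and EHT clusters, while the megakaryocyte libraries spread from 0 to 6485 CPM.

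Set beside venous endothelium, EMP cells had more Hbb-bh1, while Hbb-y did not pass the test. Hbb-bh1 in EMP cells was 32.0, 31.2, 0, 63.5 and 40.4 CPM in WT and 552, 117 and 539 CPM in cKO. It was above the venous level of the same library in 7 of 8, all but WT 3, by 3.10 ± 2.06 on the log2(CPM + 0.5) scale (SD, n = 8, exact sign-flip p = 0.0156, adjusted p = 0.0356). Hbb-y in EMP cells was 24.4, 8.85, 3.39, 71.1 and 18.5 CPM in WT and 567, 84.3 and 64.6 CPM in cKO. That was above the venous level in 2 of 8 libraries, cKO 1 and cKO 3, with a mean log2 difference of -0.28 ± 1.55 (exact sign-flip p = 0.62). Hba-a1 was higher in EMP cells in 7 of 8 libraries by 1.21 (adjusted p = 0.0483, exact sign-flip test) and Hba-a2 in 7 of 8 by 0.99 (adjusted p = 0.0356, exact sign-flip test), and Hba-x in 5 of 8 by 0.76 (exact sign-flip p = 0.242). Myeloid cells too were above venous endothelium in Hbb-bh1, in 8 of 8 libraries by 1.37 (exact sign-flip test, adjusted p = 0.0286), and their Hbb-y difference was -0.25 (exact sign-flip p = 0.766). In cells thinned to 5000 UMIs the sum of the 5 globins per EMP cell differed from that per venous cell by 0.69 ± 1.59 (log2, higher in 6 of 8 libraries, exact sign-flip p = 0.266), and by 1.06 without WT 3 (exact sign-flip p = 0.0313). Counted per cell without thinning, the difference was 1.75 (log2, exact sign-flip p = 0.0156), and EMP cells were the deeper cells in 8 of 8 libraries.

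The composition of the globins differed as well. In venous endothelium Hbb-bh1 made up 9.34%, 3.33%, 2.80%, 15.0% and 14.9% of the UMIs of Hbb-bh1 and Hbb-y in WT and 18.4%, 11.4% and 19.7% in cKO. In EMP cells it made up 56.7%, 77.9%, 0%, 47.2% and 68.6% in WT and 49.3%, 58.0% and 89.3% in cKO. WT 3 rested on 7 UMIs in EMP cells, and in the other 7 libraries every EMP share lay above every endothelial share. The paired difference was 44.0 percentage points (7 of 8 libraries, exact sign-flip p = 0.0156). Arterial (12.9% ± 7.0) and EHT cells (12.2% ± 5.78) lay near venous endothelium (11.9% ± 6.37, SD, n = 8). Against myeloid cells, whose shares spread from 12.8% to 100%, the EMP difference was 22.8 points and did not pass the test (exact sign-flip p = 0.266). In the alpha cluster, Hba-a1 and Hba-a2 together made up 41.6% ± 15.4 of alpha-type UMIs in EMP cells and 31.9% ± 5.79 in venous endothelium, a difference of 9.73 points (7 of 8 libraries, exact sign-flip p = 0.0313). WT 3 had 4 alpha-type UMIs in EMP cells, and without it the difference was 6.69 points (exact sign-flip p = 0.0625).

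Most globin counts of endothelium were thinly spread, with a median of 1 UMI per cell, but Hbb-y had a second pattern. A set of 31 of the 10929 endothelial cells held 20 or more Hbb-y UMIs and at most 3 UMIs of the other 4 globins together. This limit was chosen after the values were seen. The 31 cells held 1766 of the 12358 endothelial Hbb-y UMIs and only 32 UMIs of the other 4 globins. The highest was a vEC_4 cell of WT 4 with 357 Hbb-y UMIs, 1 Hba-x UMI and 0 of the other 3, next to 8 UMIs of Cdh5, the VE-cadherin gene. A vEC_4 cell of WT 2 had 179 Hbb-y UMIs, no other globin UMI and 7 Cdh5 UMIs, and a vEC_1 cell of WT 4 had 139 with 12 Cdh5 UMIs. These cells were deep, with a median of 30394 UMIs against 14895 in all endothelial cells. In all, 30 of the 31 held a Cdh5 UMI and 0 were called doublets. By library there were 3, 9, 2, 11 and 0 in WT 1 to WT 5 and 0, 5 and 1 in cKO 1 to cKO 3. By cluster, vEC_4 had 13 of its 1372 cells (0.948%), vEC_1 had 8, vEC_3 had 5, vEC_2 had 3 and aEC had 2. A further 11 endothelial cells had 20 or more Hbb-y UMIs beside more than 3 of the others. The pattern was not confined to endothelium: 2 of 488 EHT cells (0.410%), 1 of 248 preHE cells (0.403%), 3 of 2397 myeloid cells, 1 of 359 megakaryocytes and 0 of 747 EMP cells met the same limits, against 0.284% of endothelial cells.

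**Figure D3:**
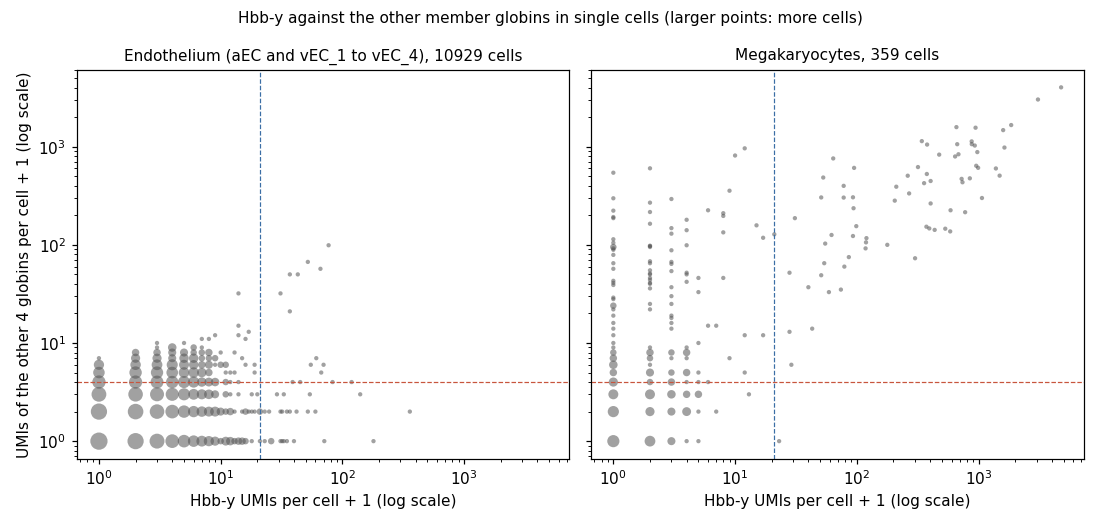
Single cells of endothelium and megakaryocytes by Hbb-y UMIs + 1 (x axis, log scale) and UMIs of the other 4 globins + 1 (y axis, log scale), with larger points for more cells and dashed lines at 20 Hbb-y UMIs and 3 other globin UMIs. Endothelium has cells along the foot of the panel that reach 357 Hbb-y UMIs with at most 3 others, and megakaryocytes have both cells along the diagonal and cells at the left edge, with up to 601 other globin UMIs and at most 5 Hbb-y UMIs.

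The reverse pattern, other globins with hardly any Hbb-y, was found in megakaryocytes and EMP cells, while few endothelial cells could have met its limits. Cells with 20 or more UMIs of the other 4 globins and at most 5 of Hbb-y numbered 60 of 359 megakaryocytes, 26 of 747 EMP cells, 5 of 2397 myeloid cells, 0 of 488 EHT cells and 0 of 10929 endothelial cells. These limits too were chosen after the values were seen. Only 8 endothelial cells and 0 EHT cells had 20 or more UMIs of the other 4 globins at all. Their absence from this set therefore rests on few cells or none. Among the 5 member globins, the cells of this set held mostly Hbb-bh1. It made up 72.8% of the 6382 UMIs of these 5 genes in the megakaryocytes and 82.5% of the 1356 in the EMP cells. Hba-x made up 1.85% and 3.61%, and Hba-a1 a further 20.9% and 8.70%. The adult globin Hbb-bt, outside this count, had 1423 and 176 UMIs in the same cells, against 1337 and 118 for Hba-a1. Of the 60 megakaryocytes, 57 held 10 or more Pf4 UMIs, and of the 26 EMP cells 0 did. By library the megakaryocytes numbered 6, 3, 0, 4 and 6 in WT 1 to WT 5 and 12, 11 and 18 in cKO 1 to cKO 3, and the EMP cells 2, 3, 0, 3 and 2 in WT and 5, 4 and 7 in cKO. Another 77 megakaryocytes had 20 or more of the other globins with over 5 Hbb-y UMIs. There Hbb-y led with 48.3% of the 79518 UMIs of the 5 genes, Hbb-bh1 had 23.8% and Hba-x 17.0%. Of these 77, 57 held 10 or more Pf4 UMIs and 8 held none.

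Inside the EMP cluster, Klf1 RNA marked cells with more globin and less myeloid RNA. Each EMP cell was thinned to 5000 UMIs and called with or without a Klf1 UMI, and the counts of each state were summed per library. Cells with a Klf1 UMI numbered 11, 16, 0, 10 and 13 in WT 1 to WT 5 and 14, 22 and 10 in cKO, so WT 3 gave no comparison. Of these 96 cells 71 had exactly 1 such UMI, and cells without one include cells in which Klf1 was missed. Klf1 chose the cells and was not tested.

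Of the globins, Hbb-bh1 had the same direction in every library compared. Cells with a Klf1 UMI held 0.636, 0.688, 1.20 and 0.231 Hbb-bh1 UMIs per cell in WT 1, WT 2, WT 4 and WT 5, and 7.93, 1.59 and 14.0 in cKO 1 to cKO 3. Cells without one held 0, 0.0952, 0.151 and 0.224 in the same WT libraries and 0.977, 0.256 and 1.00 in cKO. The level was higher with Klf1 in 7 of 7 libraries, though in WT 5 by little. The log2 ratio of the 5 globins together was 2.18 ± 1.3 (SD, n = 7, exact sign-flip p = 0.0156, the smallest possible). After thinning to 3000 UMIs it was 1.42 (5 of 7 libraries, exact sign-flip p = 0.0625). By gene it was 3.01 ± 1.77 for Hbb-bh1 (7 of 7) and 2.25 ± 1.29 for Hba-a2 (6 of 6 libraries with counts), each with an adjusted p = 0.109 over 7 globins in the exact sign-flip test. It was 0.84 for Hba-a1, 0.78 for Hbb-y and 0.64 for Hba-x, each higher in 3 or 4 libraries.

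Other regulators went with Klf1 in part. The share of cells with a Gata1 UMI was 50% with and 14.0% without Klf1 in WT 4, 61.5% and 21.4% in WT 5, and 42.9% and 14.0%, 59.1% and 19.2%, and 40% and 15% in cKO 1 to cKO 3. It was 27.3% and 27.1% in WT 1 and 25% and 25.4% in WT 2, so those libraries showed no gap. In the edgeR fit, where 12.6% of 2564 genes were called, Gata1 was higher by 1.11 ± 0.26 (SE, edgeR adjusted p = 0.0015) and Hbb-bh1 by 3.10 ± 0.17 (edgeR adjusted p = 9.7e-26). The other members did not pass the filter on low counts. The share of cells with an Nfe2 UMI was lower with Klf1 in 7 of 7 libraries, from 6.25% against 25.4% in WT 2 to 20% against 20.4% in WT 4, which was not tested. The share with an Epor UMI was higher with Klf1 in 4 libraries, by the most in WT 4 (30% against 1.08%), and lower in 3, by the most in WT 1 (0% against 8.33%), and this was not tested either. Before thinning, cells with Klf1 had the higher median of UMIs in 6 of 7 libraries. The surface tags CD117 (KIT) and CD41 (ITGA2B), measured by antibody, gave log2 ratios of 0.19 ± 0.42 and 0.30 ± 0.43 in the 6 libraries with tags and enough cells, each higher in 5 of 6 (exact sign-flip p = 0.281 and 0.156).

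**Figure D4:**
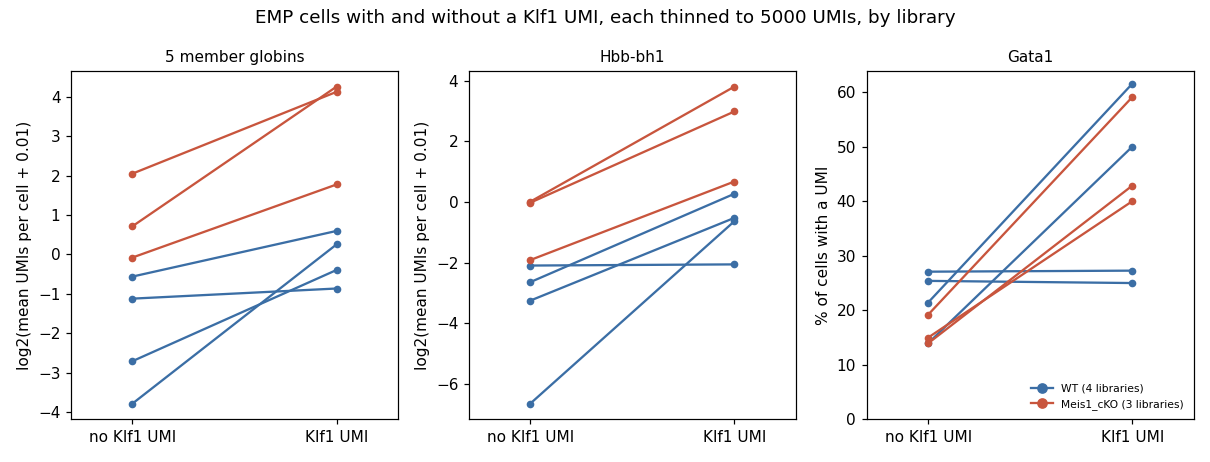
EMP cells without and with a Klf1 UMI, each thinned to 5000 UMIs, with 1 line per library, for the mean UMIs per cell of the 5 globins and of Hbb-bh1 (log2 with 0.01 added) and for the share of cells with a Gata1 UMI (percent). WT and cKO libraries have different colours. The lines of the 5 globins rise in 7 of 7 libraries, by 2.18 on the log2 scale on average.

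Of the erythroid genes (Gata1, Hbb-bh1 and those of the lists of transcription factors, signalling, heme and membrane genes), 25 were tested in this fit, and 16 were called, 15 of them higher with Klf1. The background was 5.46% of all genes called higher and 7.18% called lower. All 5 heme genes tested were higher: Cpox by 2.19, Alad by 1.26, Urod by 1.14 and Glrx5 by 0.75 among them. All 5 tested membrane and late genes were higher, Cited4 by 2.23, Blvrb by 1.84 and Car2 by 1.3 among them. Of 10 transcription factors 3 were higher, namely Zfpm1 (1.02), the GATA1 cofactor, Bcl11a (0.99) and Lmo2 (0.79), and 0 were lower. The one called lower was the kinase gene Pim1 (-0.83). All 5 tested myeloid genes were lower, with Prtn3 at -3.27, Mpo at -2.85, Spi1 at -2.29, Fcgr3 at -1.98 and Cd52 at -1.77. Over all genes, 197 passed the threshold at 20 CPM or more and moved the same way in 7 of 7 libraries, 80 higher and 117 lower. After Hbb-bh1, Cited4 and Cpox the highest were Gm15915 (2.00), Blvrb, Smim1 (1.81), Bex4 (1.44), Car2, Alad and Asns (1.16). The lowest were BC035044 (-3.30), Serpinb1a (-3.29), Anxa3 (-3.28), Prtn3, the mast cell protease gene Cpa3 (-3.01), Ramp1 (-2.87), Mpo, Cebpb (-2.76), Cd34 (-2.50) and Spi1.

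The adult globin Hbb-bt, which is not a member, differed from the member globins in its level in EHT cells. In EHT cells it stood at 28.9, 55.7, 44.3, 51.6 and 40.7 CPM in WT and at 45.5, 41.7 and 27.7 CPM in cKO, an even level that did not track the globin of the library. Venous endothelium had 1.25 ± 0.789 CPM and arterial endothelium 1.21 ± 0.873 CPM (SD, n = 8 libraries). EHT cells were 4.70 ± 0.66 above venous endothelium on the log2(CPM + 0.5) scale in 8 of 8 libraries (exact sign-flip p = 0.0078, adjusted p = 0.0286). EMP cells, at 10.3 to 70.8 CPM, were 4.01 above it and megakaryocytes, at 44.3 to 1013 CPM, 6.68 above it, also in 8 of 8 libraries. Hbb-bt averaged highest in megakaryocytes, as the 5 member globins did. There the 60 globin-bearing cells with few Hbb-y UMIs, described above, held 1423 Hbb-bt UMIs. The 77 with more Hbb-y held 573 and the other 222 held 473. Of the member globins in EHT cells, Hba-a1 was lower than in venous endothelium in 7 of 8 libraries, by a log2 difference of -0.66 (exact sign-flip p = 0.0156, adjusted p = 0.0356). That rested on only 34 Hba-a1 UMIs in EHT cells. The other 4 had log2 differences of -0.20 to 0.17 that did not pass (lowest exact sign-flip p = 0.352). Among them the near-identical Hba-a2, with 39 UMIs, stood at -0.20.

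In megakaryocytes Hbb-bh1 stood at 601, 788, 0, 23.2 and 191 CPM in WT 1 to WT 5 and at 8744, 2024 and 12165 CPM in cKO 1 to cKO 3. Hba-a1 stood at 782, 513, 4.37, 181 and 89.8 CPM in WT and at 3297, 968 and 2734 CPM in cKO. The cKO libraries were above all WT libraries for both genes, and WT 3, with its 5 cells, was lowest. Hba-a1 exceeded the venous level in 8 of 8 libraries, by 6.45 on the log2(CPM + 0.5) scale (exact sign-flip p = 0.0078, adjusted p = 0.0286). In cells thinned to 5000 UMIs the sum of the 5 globins was 5.05 ± 4.26 above venous endothelium (log2, 7 of 8 libraries, exact sign-flip p = 0.0313). Without cells of 10 or more globin UMIs after thinning it was 0.84 (exact sign-flip p = 0.344).

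Globin RNA in megakaryocytes was carried by a minority of cells in WT and by most cells in 2 cKO libraries. Cells with 50 or more UMIs of the 5 globins numbered 7 of 33, 5 of 28, 0 of 5, 2 of 24 and 8 of 102 in WT 1 to WT 5, and 48 of 64, 15 of 65 and 32 of 38 in cKO 1 to cKO 3. As shares these were 21.2%, 17.9%, 0%, 8.33% and 7.84% in WT and 75.0%, 23.1% and 84.2% in cKO. The limit of 50 UMIs was chosen after the values were seen, and 47 megakaryocytes lay between 25 and 99. Over the libraries with at least 10 megakaryocytes the share was 13.8% ± 6.75 in WT (SD, n = 4) and 60.8% ± 33.0 in cKO (n = 3), and the groups did not overlap (exact permutation p = 0.0286, two-sided, the smallest possible). cKO 2, at 23.1%, lay next to WT 1. After thinning to 5000 UMIs, with 10 or more globin UMIs as the limit, the shares were 16.8% in WT and 67.4% in cKO (exact permutation p = 0.0286).

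These 117 globin-rich megakaryocytes held 98.1% of the globin UMIs of the cluster and were 117 of the 170 such cells in all clusters. Of them, 117 held Itga2b, which encodes CD41, 94 held 10 or more UMIs of Pf4, the platelet factor 4 gene, and 9 held no Pf4. Of the other 242 megakaryocytes, 231 held 10 or more Pf4 UMIs. In WT 2, 1 cell held 8787 globin UMIs out of 26100, with 0 Pf4 UMIs, and made up 94.1% of that library's globin in the cluster. In cKO 3 a cell of 6100 globin UMIs and in cKO 1 a cell of 3513 also had 0 Pf4 UMIs. A cKO 3 cell of 2504 globin UMIs held 273 Pf4 UMIs and another make-up: 1275 of its globin UMIs were Hbb-bh1 and 10 were Hba-x, while the cell of 6100 held 536 and 2173. Scrublet called 2 of the 117 a doublet.

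The summed level of 7 megakaryocyte markers was 40270, 29246, 20934, 21748 and 21147 CPM in WT 1 to WT 5 and 14002, 22631 and 12555 CPM in cKO 1 to cKO 3. The 2 cKO libraries with the most globin, cKO 1 and cKO 3, were the lowest of the 8, whereas among the WT libraries WT 1 and WT 2, which had the most globin, were the highest. Slc4a1, a gene of mature red cells, stood at 0.692 CPM on average in megakaryocytes (7 UMIs). The part of red cells caught in or beside these megakaryocytes was not tested.

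**Figure D5:**
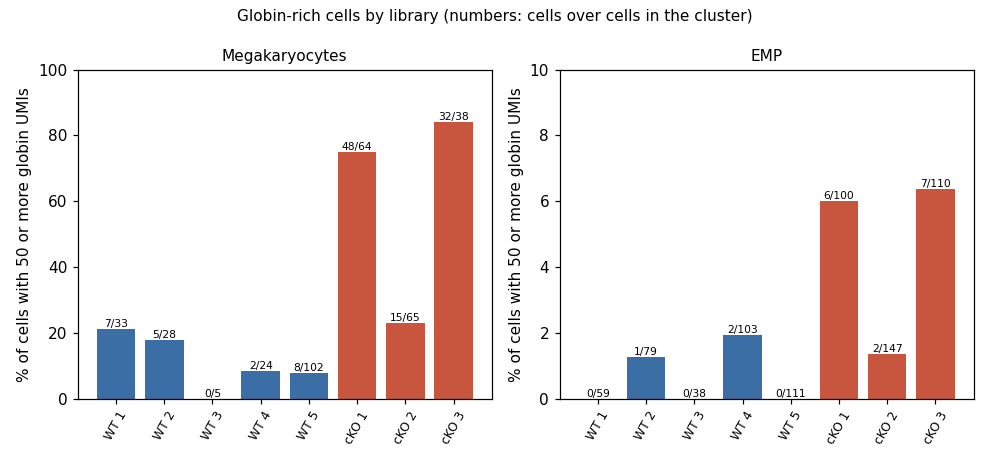
Share of cells with 50 or more globin UMIs per library (bars, percent, from 0) in megakaryocytes and in EMP cells, with the number of such cells over all cells of the cluster on each bar and a different y scale in each panel. Megakaryocytes of cKO 1 and cKO 3 reach 75.0% and 84.2%, and no other library exceeds 23.1%.

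By genotype, the summed megakaryocyte counts gave 0 of 8 members called by edgeR, where 0.206% of 7770 genes were called. Hbb-bh1 was 401 ± 354 CPM in WT (SD, n = 4) and 7644 ± 5159 CPM in cKO (n = 3), a log2 difference of 4.29 ± 0.92 (SE, edgeR adjusted p = 0.171). The other 4 globins had differences of 2.58 to 3.17, Gata1 of 0.22, Nfe2 of 0.14 and Epor of -0.24, and Klf1 was not tested. Hba-x, at 3.15, was 7.07 without WT 2, which held the cell of 8787 globin UMIs. At an unadjusted p under 0.05 edgeR had 5 of the 8 members and 686 genes, and DESeq2 called 1 member. Without cells of 50 or more globin UMIs, Hbb-bh1 was called, at 3.26 (edgeR adjusted p = 0.0232).

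In EMP cells 6 of 9 members were higher in cKO, where 4.74% of 9172 genes were called and 2.68% were called higher. All 5 globins were among them. Hba-a1 was 5.61, 2.33, 0, 8.51 and 4.08 CPM in WT and 137, 26.3 and 50.4 CPM in cKO, with no overlap, a log2 difference of 3.98 ± 0.55 (SE, edgeR adjusted p = 0.00613). Hbb-bh1, whose values are given above, also did not overlap (3.58 ± 0.60, edgeR adjusted p = 0.0162). Hba-x was higher by 3.95 ± 0.76, Hba-a2 by 2.93 ± 0.53 and Hbb-y by 3.16 ± 0.75, although for Hbb-y cKO 3, at 64.6 CPM, lay below WT 4, at 71.1 CPM. Nfe2 was higher by 0.51 ± 0.13 (edgeR adjusted p = 0.0643), and the WT and cKO values did not overlap. Gata1 (0.11 ± 0.33), Klf1 (0.07 ± 0.50) and Epor (-0.44 ± 0.54) were not called, with SEs at which a small change could have been missed.

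The EMP globin difference rested on few cells and on libraries of unequal depth. In cKO, 15 of 357 EMP cells held 79.2% of the globin UMIs, and 1 cell of cKO 1 held 1411 of 3794 in its library. Globin-rich cells were 0%, 1.27%, 0%, 1.94% and 0% of EMP cells in WT and 6.00%, 1.36% and 6.36% in cKO (0.642% ± 0.910 and 4.57% ± 2.79, exact permutation p = 0.0357). Without them 3 members were called, namely Hba-a1 at 2.13, Hbb-bh1 at 1.74 and Nfe2 at 0.51. With depth (the median UMIs over all cells of the library, on the log2 scale) as a covariate, 0 members and 25 genes were called. A fit with WT 5, the WT library nearest in depth, as the only WT library has no spread within WT. Leaving out cKO 1 left 1 call, Hba-a1. The higher globin level of cKO endothelium, given above, moved the same way, and its part in the EMP difference was not tested.

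The other erythroid lists did not follow the globins by genotype in EMP cells. Of 14 erythroid transcription factors 0 were called, of 15 membrane and late genes 0, of 8 signalling genes 0, and of 15 heme genes 1, Steap3, which was lower (-0.95). The median log2 differences were 0.09, 0.24, 0.24 and -0.03 in this order, against a median within 0.01 of 0 over all genes. Of 14 myeloid genes 4 were higher, Ms4a3 by 1.26 and Lyz2 by 0.73 among them. The adult globin Hbb-bt went the other way from the embryonic globins, at 37.1 ± 19.8 CPM in WT and 16.2 ± 5.89 CPM in cKO, but was not called (-1.17 ± 0.38, edgeR adjusted p = 0.141).

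In the other clusters few members differed by genotype. In myeloid cells, where 3.26% of 11479 genes were called and 1.48% were called higher, Nfe2 was 8.93 ± 2.74 CPM in WT and 17.1 ± 2.75 CPM in cKO and was the 1 of 9 members called (1.01 ± 0.22, edgeR adjusted p = 0.047). With depth as a covariate its difference was 0.30 (edgeR adjusted p = 0.797), and with WT 5 as the only WT library 0.39 (edgeR adjusted p = 0.616). The WT globin level there was set by 1 myeloid cell of WT 4, which held 15254 globin UMIs, 83.0% of those in WT myeloid cells, with 1 Pf4 UMI. In EHT cells 0 of 4 members were called by edgeR (0.127% of 8670 genes), with 2 of the 4 and 823 genes at an unadjusted p under 0.05 and 0 members by DESeq2. In venous endothelium 0 of 6 were called (0.0164% of 12205 genes), with 3 of the 6 and 1996 genes at an unadjusted p under 0.05 and 0 members by DESeq2. The globin differences were positive in both clusters, from 0.48 to 1.77. Epor in venous endothelium had a log2 difference of -0.12 ± 0.30.

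Other genes whose level over 79 cluster sums (10 clusters by 8 libraries, those of at least 10 cells) was most like that of the members are given as a description, by Pearson's r on log2 CPM over 12106 genes, and sums of 1 library share its depth and background. For Klf1 these were Gm15915 (0.907), Icam4 (0.884), the carbonic anhydrase gene Car1 (0.882), Mylk3 (0.882) and Zbtb16 (0.868). For Gata1 they were Cited4 (0.978), Smim5 (0.969), Muc13 (0.967), Mrap (0.963) and Diaph1 (0.955). For the sum of the globins they included Alas2 (0.826), the erythroid enzyme of the first heme step, Aqp8 (0.783), Hbb-bs (0.781) and Trim10 (0.773). Among the members, Klf1 had an r of 0.799 with Gata1, 0.734 with Nfe2, 0.561 with Hbb-bh1 and 0.192 with Hbb-y.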

How the data were processed

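RNA and antibody tags were measured with 10x 3′ v3 chemistry in 5 WT and 3 cKO libraries. The deposited values were UMI counts and tag counts per cell, made by the authors with Cell Ranger 3.0.2 on mm10, per the submitters' processing notes, and not normalized. The authors kept cells by genes and mitochondrial share (the fewest genes in a deposited cell was 2001), integrated the libraries with Seurat and named the clusters by hand. The members and gene lists were chosen with earlier results of these data known.

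Counts of all 28014 genes were summed per cluster and library, and sums of at least 10 cells entered a test in edgeR 4.0.16 under R 4.3.3 (filterByExpr, TMM, quasi-likelihood, library as a block between clusters, Benjamini-Hochberg adjusted p under 0.1). DESeq2 1.42.0 was an alternative. Log2 fold changes are those of the fit. Replicates are pools of embryos whose overlap is not given, so p-values measure the spread between libraries. Other values were compared over libraries with two-sided exact sign-flip or exact permutation tests at 0.05, in Python 3.11.15 with scipy 1.17.1. Differences from venous endothelium, summed over its clusters, used log2(CPM + 0.5). Cells were thinned to 5000 UMIs where depth could set the value, leaving out shallower cells. Globin per cell used 0.01 added UMIs. Scrublet in scanpy 1.11.5 called 83 cells (0.547%) doublets, and they were kept. The CD44 tag was missing in 6309 cells, and WT 4 had no CD41 or CD117 tags. Intervals and floors (3 counts) cover counting error only.

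All members were named. Of each list up to 4 genes with the smallest adjusted p were named, and a few others beside them, which were chosen after their values were seen. For the Klf1 split the 10 largest rises and falls at a mean of 20 CPM or more and the same sign in every library were named, and the 5 genes most like a member by Pearson's r. The analysis was tested on simulated counts with 200 changed genes. Alternatives were DESeq2, no filter, other thinning, the replicate block, a depth covariate, WT 5 alone, other references and each library left out. Some genes of the lists are not reported here by name.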

Additional observations from a re-analysis of the deposited data

Results flagged for a closer look

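The groups looked at numbered 58, mostly of 4 or 5 WT libraries. Each was a member gene or Hbb-bt in a cluster, or a value compared over libraries. Of these, 15 held a library whose distance from the others exceeded the 95% limit of Dixon's test. Chance flags about 1 in 20 groups, which would be 2.9 here if the groups were independent, but globins of 1 library share its background. Of the 15, 12 were the highest value in WT 4, the WT library with the most globin in endothelium. In its venous endothelium these were Hbb-y at 98.0 CPM against 17.4 to 34.9 in the other WT libraries, Hbb-bh1 at 17.3 against 0.502 to 4.39, and Hba-a2 at 7.01 against 0.472 to 2.19. In its EHT cells Hbb-y was at 106 CPM against 10.0 to 36.9, Hba-x at 37.1 against 0.836 to 9.23, Hbb-bh1 at 23.5 against 0.836 to 5.97, and Hba-a2 at 5.86 against 0 to 1.63.

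In the myeloid cells of WT 4, Hbb-y was at 1089 CPM, Hba-x at 616, Hbb-bh1 at 159, Hba-a1 at 146 and Hba-a2 at 68.2, while no other WT library exceeded 24.3, 17.7, 5.41, 2.82 and 2.04 in this order. The myeloid cell with 15254 globin UMIs belongs to this library.

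The remaining 3 were in other libraries. Hba-x in megakaryocytes of WT 2 stood at 1812 CPM against 27.5 to 31.6, and that library held the cell of 8787 globin UMIs. Nfe2 in megakaryocytes of WT 1 stood at 158 CPM against 78.2 to 84.4. Nfe2 in myeloid cells of WT 5 stood at 13.7 CPM against 6.76 to 8.24, next to the cKO libraries at 14.0 to 19.3 CPM, and WT 5 was also the WT library nearest to them in depth.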

How the results depend on the processing

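Of the values that answer a comparison, 195 kept their direction and side of the threshold (counts within 1.5 times) under an alternative and 50 did not. Of the values of single genes, 819 did so and 135 did not, 11 of which changed sign and were called in the reported fit or the alternative. These 11 were globins in myeloid cells by genotype: Hba-a1 at 3.47, Hba-a2 at 2.71, Hbb-y at 2.91 and Hba-x at 3.46 without WT 4, which held the cell of 15254 globin UMIs, and Hba-a1 at 3.97, Hba-a2 at 2.44 and Hbb-y at 2.36 with WT 5 as the only WT library. Over all libraries left out in turn they ranged from -0.74, -0.97, -1.56 and -1.09 to these values. Values called under neither changed sign 40 times, such as Gata1 and Klf1 by genotype in EMP cells, at -0.07 to 0.27 and -0.17 to 0.33 without 1 library. The cause of changes was not tested.

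Of the members between EMP and EHT cells, 5 in the main fit, 8 were called with no filter on low counts and 1 after thinning, which left 1 tested, and 4 to 7 without 1 library. Between megakaryocytes and EMP cells 7 to 9 were called without 1 library. By genotype in EMP cells 6 members became 0 with the depth covariate, 2 with WT 5 alone, 3 without globin-rich cells and 1 to 6 without 1 library, 1 being without cKO 1. In megakaryocytes 0 became 1 with DESeq2, 5 with no filter, 1 with the covariate, 5 with WT 5 alone, 1 without globin-rich cells and 0 to 2 without 1 library (1 without WT 1, WT 2 or WT 5, 2 without cKO 2). In myeloid cells 1 became 0 with the covariate, 4 with WT 5 alone, and 0 to 5 without 1 library (0 without WT 1 or any cKO library, 2 without WT 5, 5 without WT 4). In EHT cells 0 became 2 with no filter and with WT 5 alone, and 0 to 2 without 1 library (2 without WT 4). In venous endothelium it was 0 to 1 (1 without WT 5). Leaving out globin-rich cells was chosen after seeing the data.

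The globin level of EMP cells against venous endothelium was 1.75 per cell without thinning and 0.36 to 1.06 without 1 library, and passed the test without WT 3 (1.06, exact p = 0.0313). That of megakaryocytes was 4.48 to 6.32 without 1 library, missed the test without WT 1, WT 2 or any cKO library (exact p = 0.0625), and was 0.84 without cells of 10 or more globin UMIs (exact p = 0.344). The alpha make-up difference was 6.69 to 11.9 points and missed the test without WT 1, WT 2, WT 3, WT 5 or cKO 2 (exact p = 0.0625). The beta make-up difference was 39.7 to 50.7 points without 1 library and 22.8 against myeloid cells. The genotype difference of venous endothelium was 1.16 to 1.93 without 1 library, the highest without WT 4. In the Klf1 split, globin was 1.42 after thinning to 3000 UMIs (exact p = 0.0625), 0.62 with at least 2 Klf1 UMIs in 2 libraries, and 1.87 to 2.50 without 1 library. With at least 2 Klf1 UMIs before thinning, a setting chosen after seeing the data, the CD117 ratio was 0.53 and the CD41 ratio 0.84 (exact p = 0.0313 for each). The list count was 12 to 16 without 1 library, and it was not run at 3000 UMIs or at least 2 Klf1 UMIs after thinning, which left too few cells.

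WT and cKO libraries share replicate numbers, but their deviations had correlations of -0.189 to 0.329 and did not pair. With the replicate block, which also leaves out WT 4 and WT 5 because they have no cKO partner, 6 members were called by genotype in EMP cells, 2 in megakaryocytes, 7 in myeloid cells, 2 in EHT cells and 5 in venous endothelium, and the venous globin difference was 2.09. The myeloid globins under the block were Hba-a1 3.40, Hba-a2 2.94, Hbb-y 2.82 and Hba-x 3.43. With no replicate block between clusters, 4 members were called between EMP and EHT cells and 9 between megakaryocytes and EMP cells, and 15 erythroid genes in the Klf1 split.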
